A study of Mus musculus with 8 samples.

Results

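The genes described here write, erase and read DNA methylation: Dnmt1, Dnmt3a, Dnmt3b, Tet1, Tet2, Tet3, Mbd1, Mbd2 and Mbd3. They are 9 of the 24062 genes in the count table, found by symbol. A filter on low counts left 13197 genes for testing and kept all 9. The group was chosen because Mbd2 was higher in PARP1 WT than in the other libraries. The level of Mbd2 in PARP1 WT is therefore a description, with no test. The choice names no value of the other 8 genes, though results of these data were known when the group was drawn up.

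Total RNA was sequenced from bone marrow immature myeloid cells (IMCs) of C57BL/6 mice at 2 months of age, kept for 3 days in 40 ng/mL M-CSF, the growth factor of the macrophage lineage. There were 8 libraries, with 2 in each of 4 groups. PARP1 WT mice were PARP1 flox/flox and PARP2 WT mice were PARP2 flox/flox, both without Cre. PARP1CKO and PARP2CKO mice carried the same floxed genes together with lysozyme-Cre, which is active in the myeloid lineage. Only the CKO mice had Cre, so Cre and the deletion cannot be told apart. PARP1 and PARP2 are nuclear enzymes that add ADP-ribose to proteins, above all after DNA damage. The comparisons ask whether loss of either enzyme went with a change in the methylation machinery, and whether both losses acted alike.

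Methyl groups on cytosine, mostly at CpG, are copied after replication by DNMT1 and laid down at new places by DNMT3A and DNMT3B. TET1, TET2 and TET3 oxidise methylcytosine, which begins its removal. The MBD proteins share a methyl-CpG binding domain. MBD2 and MBD3 are alternative subunits of the NuRD complex, which joins histone deacetylation to nucleosome remodelling, and MBD3 binds methylated DNA poorly. In blood formation DNMT3A and TET2 restrain the expansion of stem and myeloid progenitor cells, and both are often mutated in myeloid malignancy. The libraries measure RNA alone, so neither methylation nor protein was seen.

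Libraries held between 37852450 and 61845125 counts. Levels are given as CPM, that is counts scaled to library size, after TMM scaling, which corrects for differences in RNA composition. The labels were checked first with the deleted genes. Parp1 was 206 ± 6.18 CPM in its WT group and 61.2 ± 2.91 CPM after deletion (SD, n = 2). Parp2 went from 48.3 ± 0.105 to 25.7 ± 0.0779 CPM in the same way. Parp1 itself was uneven in PARP2 WT, at 251 CPM in replicate 1 and 155 CPM in replicate 2, beside 263 and 264 CPM in PARP2CKO. No tested member was called in the comparisons that use PARP2 WT with either PARP2 WT library left out. Macrophage markers were abundant, with 5 of 6 found by symbol and a summed level between 2942 and 3435 CPM. The 8 neutrophil markers found summed to between 1882 and 2395 CPM, so the cultures held granulocytic RNA as well. In such bulk RNA, fewer cells of a type and less RNA per cell cannot be told apart. With 2 libraries a group, the smallest two-sided p that an exact permutation test of a gene can reach is 0.333. All p-values below come from edgeR's quasi-likelihood test fitted over all 13197 genes, with Benjamini-Hochberg adjustment. Nothing states that replicates came from separate animals, so these p-values measure the spread between libraries, which may be technical.

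**Figure D1:**
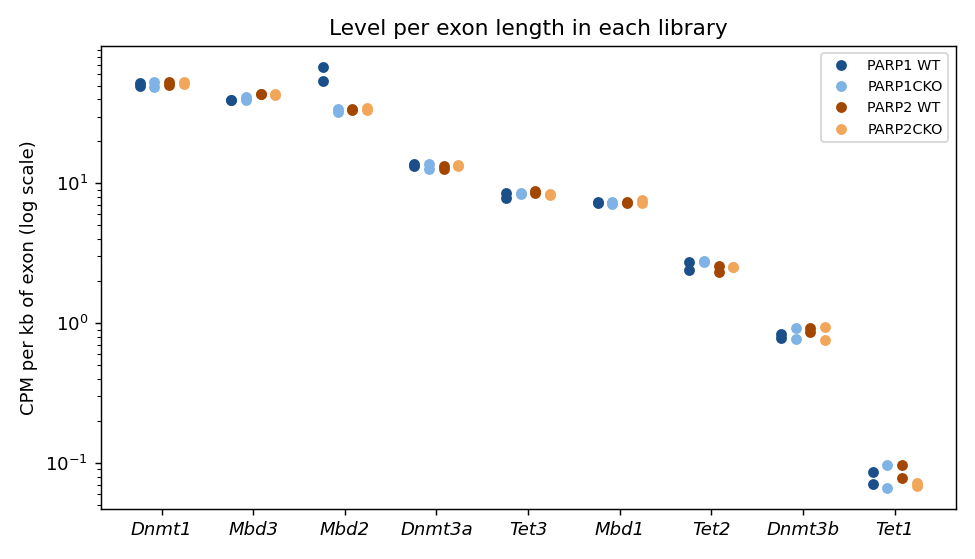
Level of each gene in each library, in CPM per kb of exon on a log axis, with genes ordered by their mean over 8 libraries and points coloured by group. Dnmt1 leads at a mean of 51.5 and Tet1 is lowest at 0.0793, and the Mbd2 points of PARP1 WT stand above those of the other groups.

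To compare genes with each other, CPM was divided by the exon length of each gene. Dnmt1, the maintenance methyltransferase, had the highest mean over all libraries by this measure, at 51.5 ± 1.56 CPM per kb (SD, n = 8). Mbd3 followed at 41.7 ± 1.95 and Mbd2 at 40.5 ± 13.2 CPM per kb. The ranges of Mbd3 and Mbd2 overlapped over all libraries, and their order depended on the group. In PARP1 WT the order differed, since Mbd2 led at a group mean of 60.9 CPM per kb, before Dnmt1 at 51.2 and Mbd3 at 39.7. Mbd2 was thus above Mbd3 there, and its group mean was below that of Mbd3 in each other group. Mbd2 and Mbd3 were at 33.1 and 40.4 CPM per kb in PARP1CKO and at 33.7 and 43.5 in PARP2 WT. In PARP2CKO they were at 34.1 and 43.3 CPM per kb.

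Next came Dnmt3a at 13.3 ± 0.405, Tet3 at 8.39 ± 0.274 and Mbd1 at 7.30 ± 0.157 CPM per kb. Tet2 stood at 2.57 ± 0.157, Dnmt3b at 0.848 ± 0.0747 and Tet1 at 0.0793 ± 0.0124 CPM per kb. Apart from Mbd3 and Mbd2, no neighbours in this order had overlapping ranges. Dnmt3a was well above Dnmt3b among the de novo enzymes, and Tet3 was above Tet2 and far above Tet1 among the erasers.

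**Figure D2:**
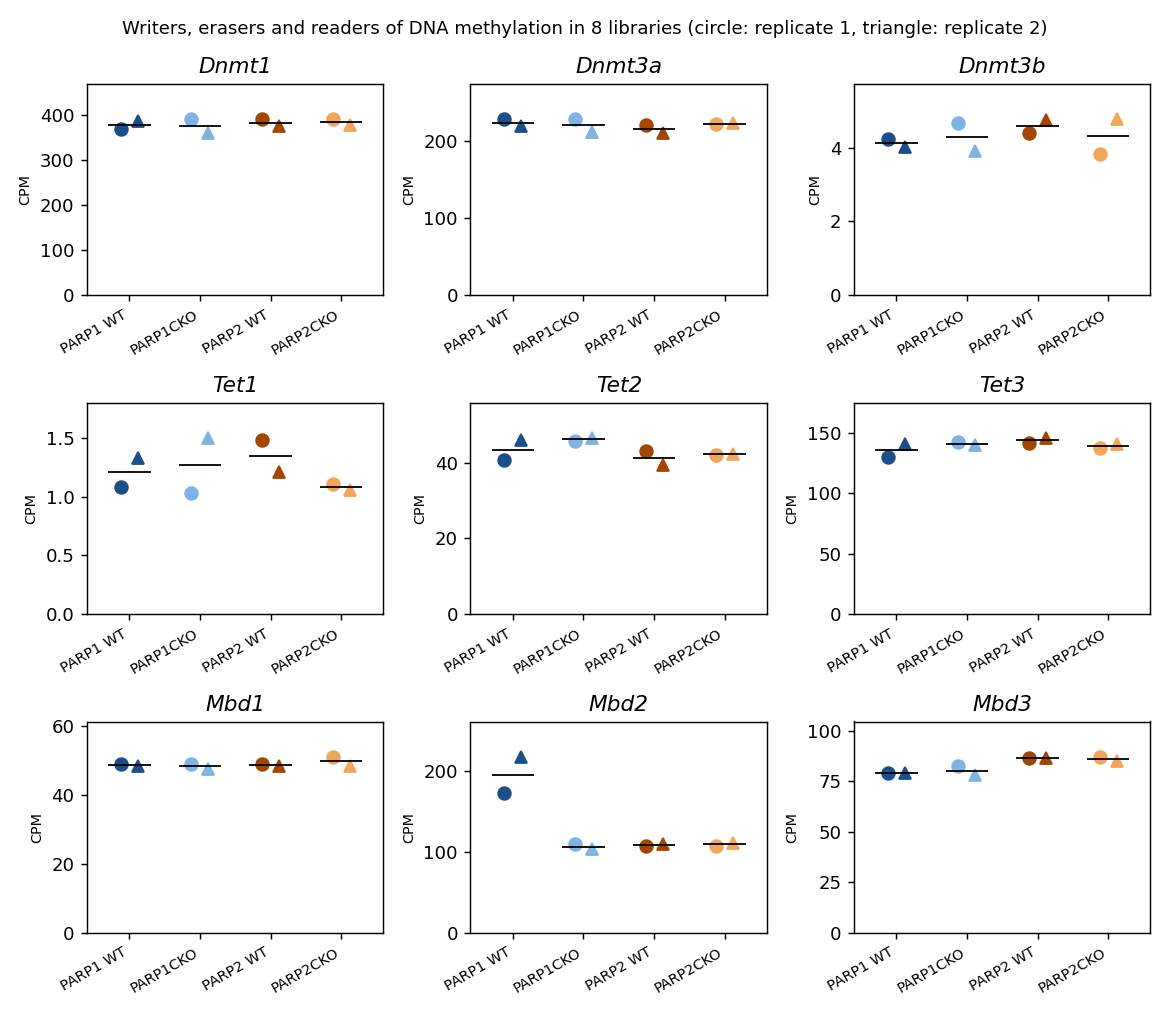
CPM of the 9 genes in each of 8 libraries, with circles for replicate 1, triangles for replicate 2 and a bar at the mean of each group; each vertical axis starts at 0. Mbd2 is at 173 and 218 CPM in PARP1 WT and between 103 and 112 CPM elsewhere, and the other genes vary little between groups.

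Dnmt1 (chr9:20907209-20959888 on GRCm38, minus strand) was measured at 369 and 387 CPM in PARP1 WT, and at 390 and 360 CPM in PARP1CKO. In PARP2 WT it was at 390 and 375 CPM, and in PARP2CKO at 391 and 377 CPM. The groups overlapped, and the highest library was 1.09 times the lowest. Dnmt3a (chr12:3806007-3914443, plus strand) was as even, at 228 and 220 CPM in PARP1 WT against 229 and 212 CPM in PARP1CKO. It was at 221 and 210 CPM in the PARP2 WT libraries, and at 222 and 223 CPM in PARP2CKO. An exon of Dnmt3a overlaps an exon of the antisense gene Dnmt3aos over 133 bases. Whether counting used the strand is not stated, so reads there may belong to either gene.

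Dnmt3b (chr2:153649450-153687730, plus strand) rested on far fewer reads, between 164 and 255 counts per library. Its level was 4.24 and 4.03 CPM in the PARP1 WT libraries, 4.68 and 3.92 CPM in PARP1CKO, 4.41 and 4.75 CPM in the PARP2 WT libraries, and 3.84 and 4.78 CPM in PARP2CKO. The replicates of each CKO group lay farther apart than the group means did.

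Among the erasers, Tet1 (chr10:62804570-62908996, minus strand) had between 42 and 86 counts per library. Its level was 1.09 and 1.33 CPM in the PARP1 WT libraries, 1.03 and 1.50 CPM in PARP1CKO, 1.49 and 1.21 CPM in the PARP2 WT libraries, and 1.11 and 1.06 CPM in PARP2CKO. Both PARP2CKO libraries were below both PARP2 WT libraries, yet within the range of the PARP1 line.

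Tet2 (chr3:133463679-133545139, minus strand) was at 40.8 and 46.0 CPM in the PARP1 WT libraries, 45.9 and 46.7 CPM in PARP1CKO, 43.0 and 39.3 CPM in the PARP2 WT libraries, and 42.2 and 42.4 CPM in PARP2CKO. Tet2 shares 43 exonic bases with the antisense gene Gm42567. Tet3 (chr6:83362373-83459084, minus strand) was at 130 and 141 CPM in the PARP1 WT libraries, 143 and 140 CPM in PARP1CKO, 142 and 146 CPM in the PARP2 WT libraries, and 138 and 141 CPM in PARP2CKO. The lowest Tet3 value belonged to PARP1 WT replicate 1, which was also the library with the fewest counts.

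Of the readers, Mbd1 (chr18:74267605-74282732, plus strand) was the steadiest gene of the 9, its highest library being 1.08 times its lowest. It was at 49.1 and 48.4 CPM in the PARP1 WT libraries, 49.2 and 47.6 CPM in PARP1CKO, 49.1 and 48.5 CPM in the PARP2 WT libraries, and 51.2 and 48.4 CPM in PARP2CKO. Mbd3 (chr10:80392539-80399550, minus strand) was at 78.9 and 78.9 CPM in the PARP1 WT libraries, 82.6 and 77.9 CPM in PARP1CKO, 86.5 and 86.4 CPM in the PARP2 WT libraries, and 87.2 and 85.0 CPM in PARP2CKO. All 4 libraries of the PARP2 line were thus above all 4 of the PARP1 line. The lines differed widely, as 51.9% of all genes did not overlap between the WT groups alone, in either direction.

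Mbd2 (chr18:70568189-70626131, plus strand) had 6692 and 10830 counts in PARP1 WT, or 173 and 218 CPM. PARP1CKO stood at 110 and 103 CPM, PARP2 WT at 107 and 110 CPM, and PARP2CKO at 108 and 112 CPM. The group means were 196 ± 32.0 CPM in the PARP1 WT libraries, 106 ± 4.41 in PARP1CKO, 108 ± 1.66 in PARP2 WT and 110 ± 2.79 in PARP2CKO (SD, n = 2). Both PARP1 WT libraries were above the other 6, and they also differed more from each other than any other pair of replicates did. The fitted level in PARP1CKO was 0.544 times that in PARP1 WT (log2 fold change -0.88), and that in PARP2 WT was 0.554 times (log2 fold change -0.85). Without PARP1 WT replicate 1 the log2 fold change in PARP1CKO was -1.04, and without PARP1 WT replicate 2 it was -0.70. It was the 1 group with a high level among 4, and PARP2 WT, also without Cre, did not share it. Over all genes tested, 973 (7.37%) had both PARP1 WT libraries above the other 6.

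Marker genes of other cell types were summed beside this result. The sums of both PARP1 WT libraries lay outside the range of the other 6 in none of the 9 lists, proliferation genes included. Single genes did differ. Of 7 proliferation genes, 4 (Mki67, Top2a, Ccnb1 and Cdk1) had both PARP1 WT libraries above the other 6, by small margins, against 7.37% of all genes. Pcna, abundant in the same list, was at 539 and 541.5 CPM in PARP1 WT and highest in PARP1CKO replicate 1, at 577 CPM. Retnlg, 1 of 8 tested neutrophil markers, and Fcer1a, 1 of 5 of basophils and mast cells, were also above in both PARP1 WT libraries. Mki67 was at 765 and 826 CPM in PARP1 WT and at most 760 CPM elsewhere, and Ccnb1 was at 82.2 and 79.7 CPM against at most 78.4 CPM. Mertk, Camp and Ly6c1 had both PARP1 WT libraries below the other 6. B cell markers summed to between 27.5 and 32.2 CPM in PARP1 WT and between 28.7 and 39.8 CPM in PARP1CKO. Erythroid markers summed to between 2.36 and 2.87 CPM in PARP1 WT against 4.16 to 5.15 CPM in PARP1CKO, with all 4 tested genes at a higher estimate and none called. T and NK cell markers, of which 2 of 6 were tested, were between 2.20 and 2.38 CPM against 2.80 to 3.50 CPM. Most of that sum was Cd4, at 1.81 and 1.96 CPM in PARP1 WT and 2.44 and 2.85 CPM in PARP1CKO. Cd3e, Cd3d, Ncr1 and Klrb1c had at most 6 counts in a library, so the sum says little of T and NK cells. The 3 markers found of the immature myeloid gate summed to between 970 and 1021 CPM in PARP1 WT against 936 to 958 CPM in PARP1CKO. In the PARP2 line the sum was between 1015 and 1097 CPM. Most of it was Itgam, at 910 and 956 CPM in PARP1 WT and 881 and 896 CPM in PARP1CKO. Ly6c1 went the other way, at 0.646 and 0.605 CPM against 0.714 and 0.686 CPM, and Ly6c2 overlapped. Monocyte markers were between 223 and 251 CPM in PARP1 WT, between 185 and 225 CPM in PARP1CKO, and between 264 and 293 CPM in the PARP2 line. The part of any of these cells in the level of Mbd2 was not tested.

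**Figure D3:**
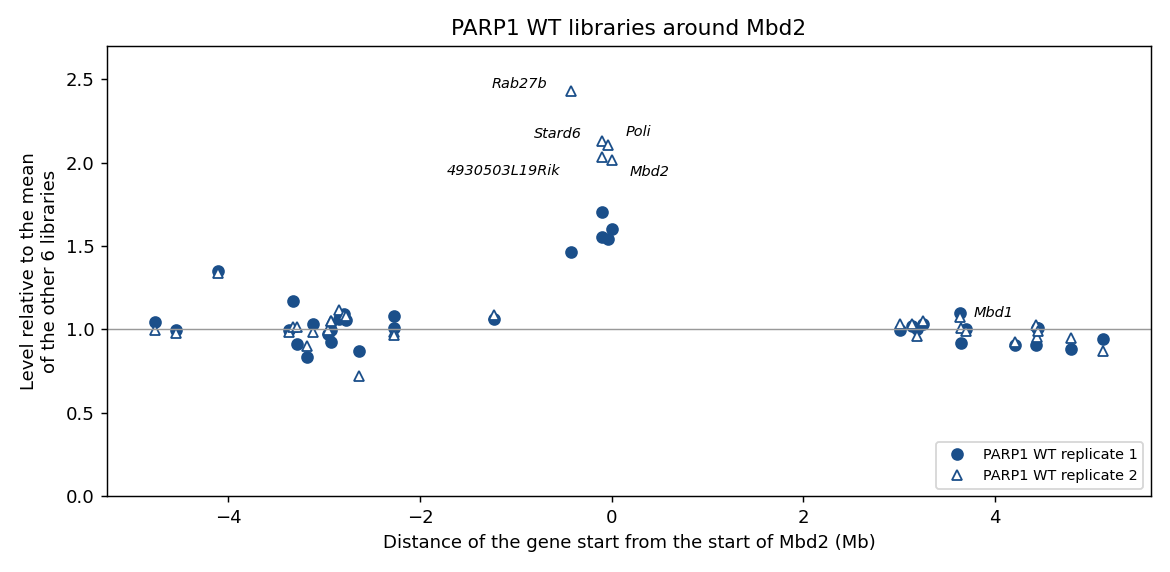
Level of each gene in PARP1 WT replicate 1 (circles) and replicate 2 (triangles) relative to the mean of the other 6 libraries, against the distance of its start from that of Mbd2 in Mb; genes are shown where that mean is at least 1 CPM. From Rab27b to Mbd2 the circles lie between 1.47 and 1.71 and the triangles between 2.02 and 2.43, and most genes on either side, Mbd1 among them, lie near 1; the highest of these is Pmaip1 at 1.35 and 1.34.

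The genes around Mbd2 were then examined, within 5 Mb to each side of its start. These genes were singled out after their values were seen, so they are described with no test. The window held 69 genes of the table, and 43 of them were tested. Within 500 kb before the start of Mbd2, and up to Mbd2 itself, 5 of 5 tested genes had both PARP1 WT libraries above the other 6. Over all genes tested, 7.37% did so, and the 5 include Mbd2, which was chosen for this pattern. The order of the 5 is Rab27b, 4930503L19Rik, Stard6, Poli and Mbd2, with no other tested gene among them. Dynap, which starts between Rab27b and 4930503L19Rik, and Mir6357, which starts within Poli, had 0 counts in every library.

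Poli, which encodes the translesion DNA polymerase iota, starts at -37.6 kb, counted from the start of Mbd2. Its level was 13.6 and 18.6 CPM in the PARP1 WT libraries, 8.47 and 7.83 CPM in PARP1CKO, 9.79 and 8.52 CPM in the PARP2 WT libraries, and 10.5 and 7.91 CPM in PARP2CKO. As for Mbd2, replicate 2 of PARP1 WT was the highest library and replicate 1 the next.

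Stard6, a gene of the START lipid transfer family, and the neighbouring 4930503L19Rik start at -95.7 kb, and the beginnings of the pair overlap on opposite strands. Stard6 was at 3.02 and 3.77 CPM in PARP1 WT and between 1.31 and 2.22 CPM in the other 6 libraries. The better measured 4930503L19Rik was at 48.0 and 62.9 CPM in the PARP1 WT libraries, 31.3 and 32.9 CPM in PARP1CKO, 29.1 and 31.9 CPM in the PARP2 WT libraries, and 27.2 and 33.2 CPM in PARP2CKO. Reads of this pair cannot be told apart where they overlap if strand was not used.

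Rab27b, a small GTPase of vesicle secretion, starts at -427 kb. It was at 29.8 and 49.4 CPM in the PARP1 WT libraries, 18.8 and 24.3 CPM in PARP1CKO, 25.5 and 16.9 CPM in the PARP2 WT libraries, and 17.7 and 18.8 CPM in PARP2CKO. Its other groups were less even than those of Mbd2, and PARP2 WT replicate 1 came close to the lower PARP1 WT library.

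For the 5 genes together, PARP1 WT replicate 1 was between 1.47 and 1.71 times the mean of the other 6 libraries. PARP1 WT replicate 2 was between 2.02 and 2.43 times that mean. The ratio was thus of like size across neighbours that differ widely in level, and it was larger in replicate 2 for each of them.

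The tested genes that flank this stretch did not share the pattern. Tcf4, a transcription factor gene at -1225 kb, was at 48.8 and 50.0 CPM in PARP1 WT and between 41.8 and 49.9 CPM in the other libraries. On the far side the next tested gene was Mex3c, at 3005 kb, at 41.5 and 43.1 CPM in PARP1 WT and between 40.8 and 42.7 CPM in the others. Ccdc68 and Dcc, which lie in the gaps, had at most 4 counts in a library and could not show where the stretch ends. In the rest of the window, 3 of 38 tested genes (Ptpn2, Seh1l and Me2) had both PARP1 WT libraries above the other 6. That is near the 7.37% of all genes tested. Of those 38, 30 had a mean of at least 5 CPM over the other libraries, and their ratios ran from 0.832 to 1.35 in replicate 1 and from 0.872 to 1.34 in replicate 2. The upper end was Pmaip1, whose lower PARP1 WT value was 0.951 times the highest of the other libraries.

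Over the whole genome, 9792 genes had a mean of at least 5 CPM, and 813 of them (8.30%) had both PARP1 WT libraries above the other 6. They were ranked by the lower PARP1 WT library over the highest of the other 6. Mbd2 came 1st at 1.55, 4930503L19Rik came next at 1.45 and Poli after it at 1.30. Dhrs9 at 1.18 and Rab27b at 1.17 followed. So 4 of the 5 highest places at this level belonged to this stretch of chromosome 18, 1 of them being Mbd2, chosen for this pattern. Over all 13197 tested genes, where scarce genes also enter, Mbd2 ranked 4, 4930503L19Rik 6, Stard6 11, Poli 17 and Rab27b 38. The table holds no genotype or copy number for this place in the genome. A difference at the locus between the animals of PARP1 WT and the others and an effect of PARP1 deletion on Mbd2 cannot be told apart here.

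**Figure D4:**
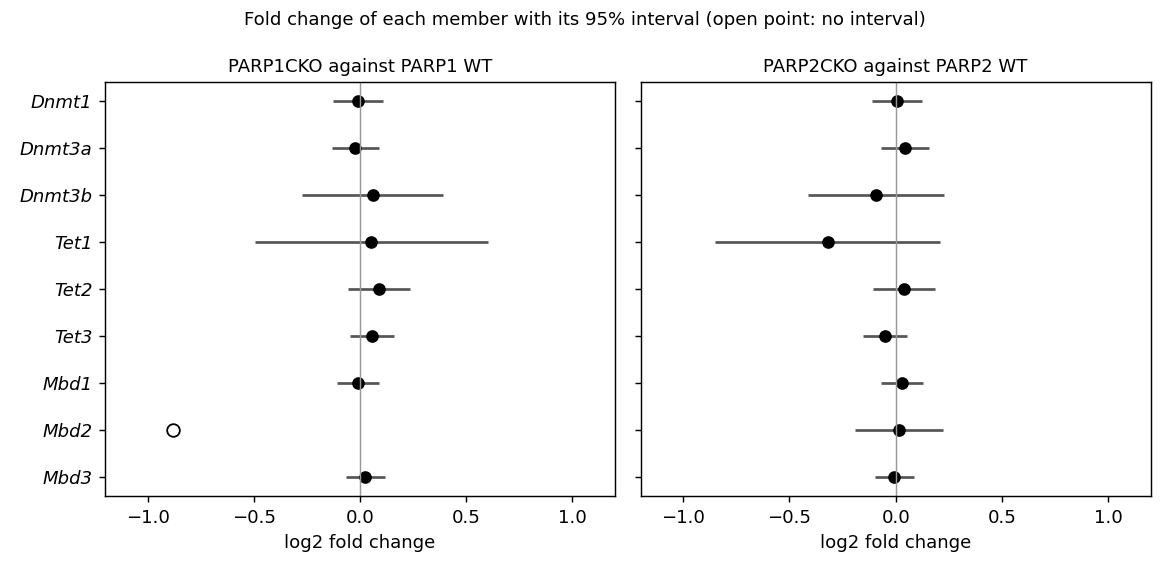
Log2 fold change of each gene in PARP1CKO against PARP1 WT and in PARP2CKO against PARP2 WT, with 95% intervals from edgeR's quasi-likelihood fit; the open point is Mbd2 at -0.88, which has no interval because it was chosen on this value. All other intervals include 0, and that of Mbd2 in PARP2CKO runs from -0.19 to 0.22.

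In PARP1CKO against PARP1 WT, none of the 8 genes open to testing passed. Adjusted p-values of edgeR's quasi-likelihood test lay between 0.618 and 0.948, and 0 of 8 had an unadjusted p under 0.05. DESeq2 also called 0. Over all genes the test called 14 of 13197 (0.106%), so 0 of 8 is near the background. The groups overlapped for all 8, against 41.2% of all genes whose groups did not. Dnmt1 had a log2 fold change of -0.01 with a 95% interval from -0.13 to 0.11, and Dnmt3a one of -0.02 from -0.13 to 0.09. The interval of Tet2 ran from -0.06 to 0.24 around 0.09, and that of Tet3 from -0.05 to 0.16 around 0.06. Mbd1 was at -0.01, from -0.11 to 0.09, and Mbd3 at 0.03, from -0.07 to 0.12. The scarce genes were less well bounded, with Dnmt3b at 0.06 from -0.27 to 0.39 and Tet1 at 0.05 from -0.49 to 0.60.

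In PARP2CKO against PARP2 WT all 9 genes could be tested, and none passed. Mbd2 had a log2 fold change of 0.01 (SE 0.0912, 95% interval from -0.19 to 0.22, adjusted p = 0.997 by edgeR's quasi-likelihood test). Tet1 had the largest estimate at -0.32, with an interval from -0.85 to 0.21, and it was -0.16 without PARP2 WT replicate 1. Dnmt3b was at -0.09, from -0.41 to 0.23. The other 6 lay between -0.05 and 0.04. Adjusted p-values ran from 0.954 to 0.997, 0 of 9 had an unadjusted p under 0.05, and DESeq2 called 0. The test called 7 genes of 13197 (0.053%) here. Groups did not overlap for 3 of 9 genes, with Dnmt3a higher and Tet1 and Tet3 lower in PARP2CKO, against 37.2% of all genes.

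Whether the effect in PARP2CKO differed from that in PARP1CKO was tested directly. It passed for 0 of 8 genes by edgeR's quasi-likelihood test (adjusted p between 0.744 and 0.968) and by DESeq2, with 0 of 8 under an unadjusted p of 0.05. Over all genes 2 passed (0.0152%). The largest estimate was that of Tet1 at -0.37 (95% interval from -1.14 to 0.39). It rested on PARP1CKO replicate 2, without which it was -0.081 and that of Dnmt3b, at -0.27, was larger, and without PARP1CKO replicate 1 it was -0.63. For Tet3 it was -0.11 (from -0.25 to 0.04), and -0.047 without PARP1 WT replicate 1 or -0.16 without PARP1 WT replicate 2. Groups were apart in both lines, in opposite directions, for 0 of 8 genes, against 6.62% of all genes. For Mbd2 the difference was 0.89, given with no test since PARP1 WT enters it.

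PARP2 WT was then set against PARP1 WT, where line, litter and any batch cannot be told apart. The test called 417 genes (3.16%), far more than either deletion did, and 0 of the 8 genes were among them, by DESeq2 also 0. Mbd3 came nearest, with a log2 fold change of 0.13 (SE 0.0412, 95% interval from 0.04 to 0.23). Its unadjusted p was 0.0107 and its adjusted p 0.134 by edgeR's quasi-likelihood test, so it did not pass. Over the alternative settings its adjusted p ran from 0.128 to 0.412. It was the 1 gene of 8 with an unadjusted p under 0.05. Groups did not overlap for 3 of 8 genes, Mbd3, Dnmt3b and Tet3, all higher in PARP2 WT, against 51.9% of all genes. Dnmt3b was at 0.15 (from -0.18 to 0.48) and Tet3 at 0.08 (from -0.02 to 0.19). Beside this comparison 5 of 5 B cell markers were lower in PARP2 WT (log2 fold change between -2.61 and -1.19), and their sum was between 8.96 and 10.6 CPM against 27.5 to 32.2 CPM in PARP1 WT. All 5 basophil and mast cell markers were also lower with no overlap, and Kit passed (-0.70, adjusted p = 0.00429). Of the other marker lists, Hba-a1 of erythroid cells (-1.31, adjusted p = 0.0126) and Retnlg of neutrophils (-0.79, adjusted p = 0.00924) were lower, and Elane of granulocyte precursors (0.42, adjusted p = 0.0269) and Mertk of macrophages (0.76, adjusted p = 0.00529) were higher in PARP2 WT. As lists, the 8 tested neutrophil markers were split, 4 at a higher and 4 at a lower estimate. The 5 macrophage markers had a median of 0.10, with 4 at a higher and 1 at a lower estimate. The part of any of these genes' cells in the level of Mbd3 was not tested.

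The 48 other genes of the pathway were taken from lists drawn up by function, and 45 of them were tested. In PARP1CKO 0 of 45 passed edgeR's quasi-likelihood test, 9 (20.0%) had an unadjusted p under 0.05 against 11.3% of all genes, and their median log2 fold change was 0.01 as it was over all genes. In PARP2CKO 0 of 45 passed and 2 (4.44%) had an unadjusted p under 0.05, against 4.83% of all genes. For the difference of the effects 0 passed and 4 (8.89%) were under 0.05 unadjusted, against 7.69% of all genes. Between the WT groups 1 passed and 11 (24.4%) were under 0.05 unadjusted, against 18.9% of all genes. The gene that passed was Gadd45g, a stress gene linked to demethylation by repair, with a log2 fold change of 0.59 (SE 0.0887, adjusted p = 0.0112) in PARP2 WT against PARP1 WT.

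Of the maintenance and targeting partners, 0 of 8 tested genes passed in any of the 4 comparisons. The smallest p in PARP1CKO was that of Dnmt3l, a catalytically inactive cofactor of the de novo enzymes, with a log2 fold change of 0.42 (adjusted p = 0.287). Between the WT groups it was that of Cdca7, a partner of the remodeller HELLS, at -0.23 (adjusted p = 0.0525), and in PARP2CKO that of Hells at -0.06 (adjusted p = 0.956). Cdca7 also led the difference of effects, at 0.14 (adjusted p = 0.702).

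Genes that remove or repair modified cytosine gave 0 of 7 calls in each deletion. Gadd45a led in PARP1CKO at -0.20 (adjusted p = 0.430) and Gadd45b in PARP2CKO at 0.15 (adjusted p = 0.954). The difference of effects for Gadd45a was 0.26 (adjusted p = 0.654).

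Among 10 other readers of CpG, Mbd6 had the smallest p in PARP1CKO. MBD6 carries a domain of the MBD type and belongs to a deubiquitinase complex. It was at 77.4 and 87.7 CPM in PARP1 WT but at 101 and 99.3 CPM in PARP1CKO, with a log2 fold change of 0.28 (adjusted p = 0.167). Between the WT groups it was 0.18 (adjusted p = 0.134). Zbtb4, a zinc finger reader of methylated CpG, had the smallest p in PARP2CKO, at 0.16 (adjusted p = 0.888).

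The NuRD subunits, partners of MBD2 and MBD3, gave 0 of 12 calls in each of the 4 comparisons. Chd3, a remodelling ATPase of NuRD, had the smallest p in 3 of them. Its level was 46.7 and 43.7 CPM in PARP1 WT against 62.8 and 69.4 CPM in PARP1CKO, and 52.2 and 58.6 CPM in PARP2 WT against 46.2 and 37.7 CPM in PARP2CKO. The log2 fold change was 0.55 in PARP1CKO (adjusted p = 0.122) and -0.40 in PARP2CKO (adjusted p = 0.622). The difference was -0.95 (SE 0.137, adjusted p = 0.119), which did not pass over all genes. Mta3 led between the WT groups at -0.15 (adjusted p = 0.0924).

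Genes of methyl donor and 2-oxoglutarate metabolism, the cofactor supply of DNMT and TET enzymes, gave 0 of 8 calls in each comparison. Idh1, which makes 2-oxoglutarate, led between the WT groups at 0.20 (adjusted p = 0.0920).

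Dnmt1 and its partners rise with replication in most cells, so proliferation genes were read as well. None of 7 passed in any comparison. Top2a, the topoisomerase of dividing cells, had the smallest p in PARP1CKO at -0.11 (adjusted p = 0.358), in the difference at 0.11 (adjusted p = 0.667) and between the WT groups at -0.12 (adjusted p = 0.129). Mki67 had it in PARP2CKO at -0.07 (adjusted p = 0.954). Unadjusted p was under 0.05 for 1 of 7 in PARP1CKO, against 11.3% of all genes, and for 4 of 7 between the WT groups, against 18.9%. Groups did not overlap for 4 of 7, all lower in PARP1CKO, against 41.2% of all genes in either direction, and for 5 of 7, all lower in PARP2 WT against PARP1 WT, against 51.9%. The summed level of the list was between 2118 and 2216 CPM in PARP1 WT and between 2045 and 2141 CPM in the other 6 libraries.

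Last, genes with the most similar course over the 8 libraries were sought, by Pearson's r of log2 CPM. These values are descriptions over 4 groups of 2 libraries, and libraries of a group are not independent. For Mbd2 the nearest genes were Top2a (r = 0.981), 4930503L19Rik (0.971), Gpd2 (0.970), Cep57l1 (0.968) and Eif5b (0.966). Top2a spanned 313 to 347 CPM and Gpd2 52.6 to 58.2 CPM, far less than the 103 to 218 CPM of Mbd2. The neighbour 4930503L19Rik, with 27.2 to 62.9 CPM, was the 1 gene of the 5 that matched Mbd2 in size too. The course of Mbd2 is set mostly by its high PARP1 WT level, for which it was chosen. Its matches therefore restate that choice and add no separate evidence. Dnmt1 was nearest to Gatad2a (r = 0.985), a NuRD subunit that spanned 129 to 139 CPM, and then to Zfpl1, Ppp1r18, Actn4 and Creb3l3 (r between 0.934 and 0.941). Tet2 was nearest to 0610030E20Rik (0.968), Ttc26 (0.965), Bag2 (0.962), Homez (0.950) and Smg1 (0.941).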

How the data were processed

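The authors trimmed the reads with fastq-mcf and checked them with FastQC 0.11.2. They mapped them to mm10 with TopHat2 2.0.12, marked duplicates with Picard 1.127 and counted them on genes with featureCounts. They deposited raw counts per gene for 8 libraries, and 0 columns lay outside them. The annotation, the strand setting and the treatment of marked duplicates are not given in the sources used here.

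Counts were analysed with edgeR 4.0.16 in R 4.3.3. Genes were filtered with filterByExpr and scaled by TMM. A quasi-likelihood model with a mean for each of 4 groups was fitted to all 8 libraries, and genes were called at a Benjamini-Hochberg adjusted p below 0.05. The common biological coefficient of variation was 0.055. Log2 CPM used a prior count of 2. Replicate libraries were farther apart than sampling noise in each group, so each library counted as 1. Intervals cover 95%. DESeq2 1.42.0, another scaling, another filter, a replicate block and leaving out each library were alternatives. Gene positions and exon lengths are those of GENCODE M21 (GRCm38). Figures were drawn with matplotlib.

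The members and the lists were chosen with earlier results of these data known. All 9 members are named, with Parp1 and Parp2. In each list the called genes and the gene with the smallest p in each comparison are named, and for Mbd2, Dnmt1 and Tet2 the 5 genes with the highest correlation. One gene that this rule names is not reported here. Genes near Mbd2 were chosen after their values were seen. Further lists were markers of macrophages, monocytes, neutrophils, B cells, T and NK cells, erythroid cells, basophils and mast cells, and the immature myeloid gate. Tested on simulated data of 13197 genes for PARP1CKO against PARP1 WT, the fit recovered 66.3% of genes changed by 0.5 and 84.0% of those changed by 1 (log2), with 9.07% false calls.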

Additional observations from a re-analysis of the deposited data

Results flagged for a closer look

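The deletions were compared for 60 genes, which were the 8 members other than Mbd2 and the tested genes of the pathway and proliferation lists. Of these, 4 had opposite directions, each with no overlap between CKO and WT in either line, and none of the 4 was a member. Over all 13197 genes 6.62% did the same, so 4 of 60 is near the background. The test of the difference itself, by edgeR's quasi-likelihood method, passed for none of the 4. Chd3, the NuRD ATPase, had log2 fold changes of 0.55 in PARP1CKO and -0.40 in PARP2CKO, a difference of -0.95 (adjusted p = 0.119). Mbd6 had 0.28 and -0.09, a difference of -0.37 (adjusted p = 0.288). Rbbp4, a histone-binding NuRD subunit, had -0.08 and 0.05, a difference of 0.13 (adjusted p = 0.613). Kdm2a, a reader of unmethylated CpG, had 0.04 and -0.06, a difference of -0.10 (adjusted p = 0.686).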

How the results depend on the processing

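No tested member passed in any of the 4 comparisons under any alternative run, a replicate block included (0 members called). Mbd2 was tested in PARP2CKO against PARP2 WT alone. The smallest adjusted p of a tested member was 0.128, for Mbd3 between the WT groups. With 2 libraries a group, and 42 to 86 counts for Tet1, small changes of the scarce genes could not be seen at this depth. The labels do not say whether replicate numbers pair libraries. Deviations of same-numbered libraries correlated at r = -0.13 in the PARP1 line and 0.15 in the PARP2 line. With the replicate block the Mbd2 log2 fold change in PARP1CKO was -0.87, and it was -0.87 with crossed pairing, which was chosen after seeing the data. Calls over all genes in PARP1CKO, PARP2CKO, the difference and the WT groups were 14, 7, 2 and 417. They were 101, 26, 61 and 872 with no filter, 86, 27, 45 and 551 with DESeq2, 146, 39, 72 and 910 with the likelihood-ratio test, and 17, 11, 1 and 315 with the block. Crossed pairing gave 46 in PARP1CKO. With 1 library left out, calls ran from 1 (without PARP1 WT replicate 2) to 34 (without PARP1CKO replicate 1) in PARP1CKO, from 6 (without PARP2CKO replicate 1) to 19 (without PARP2 WT replicate 1) in PARP2CKO, from 1 (without PARP1 WT replicate 2) to 16 (without PARP1CKO replicate 1) for the difference, and from 85 (without PARP1 WT replicate 1) to 319 (without PARP1 WT replicate 2) between the WT groups, so the background shares move with single libraries.

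Of the log2 fold changes recomputed, 40 changed sign, 6 Mbd2 values moved by more than the replicate SD, and 422 kept their sign. Those of the 422 that had a test also kept their side of the threshold, though some of the 422 shifted in size. Mbd2 values outside PARP2CKO against PARP2 WT had no test, so no threshold applies to them. Each sign change was of an estimate that had not passed. With library size alone, Dnmt1 was at -0.020 and Mbd2 at -0.012 in PARP2CKO, Dnmt1 at -0.0032 for the difference, and Dnmt1 at -0.023 and Mbd1 at -0.037 between the WT groups. Mbd1 between the WT groups was at -0.00017 with DESeq2's size factors and -0.00019 with DESeq2. With each library left out in turn, Mbd2 in PARP1CKO ran from -1.04 to -0.70, the ends being without PARP1 WT replicate 1 and without PARP1 WT replicate 2. In the same comparison Tet2 ran from 0.0059 to 0.18, and the ranges were -0.072 to 0.045 for Dnmt1, -0.080 to 0.031 for Dnmt3a, -0.078 to 0.18 for Dnmt3b, -0.24 to 0.31 for Tet1, -0.0021 to 0.11 for Tet3, -0.035 to 0.012 for Mbd1 and -0.019 to 0.066 for Mbd3. In PARP2CKO they were -0.46 to -0.16 for Tet1, 0.010 to 0.081 for Dnmt3a, -0.071 to -0.027 for Tet3, -0.021 to 0.034 for Dnmt1, -0.25 to 0.064 for Dnmt3b, -0.024 to 0.11 for Tet2, -0.012 to 0.069 for Mbd1, -0.012 to 0.040 for Mbd2 and -0.025 to 0.011 for Mbd3. For the difference they were 0.72 to 1.05 for Mbd2, -0.63 to -0.081 for Tet1, 0.014 to 0.12 for Dnmt3a, -0.16 to -0.047 for Tet3, -0.038 to 0.077 for Dnmt1, -0.31 to 0.0050 for Dnmt3b, -0.14 to 0.033 for Tet2, -0.0015 to 0.079 for Mbd1 and -0.072 to 0.012 for Mbd3. Between the WT groups they were -1.01 to -0.67 for Mbd2, -0.090 to -0.019 for Dnmt3a, 0.093 to 0.20 for Dnmt3b, 0.028 to 0.14 for Tet3, -0.018 to 0.050 for Dnmt1, -0.0055 to 0.31 for Tet1, -0.16 to 0.013 for Tet2 and -0.0095 to 0.012 for Mbd1. The cause of these changes was not tested.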
